A study of Arabidopsis thaliana with 12 samples.

Results

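The nuclear genes AT1G64510, AT1G29070, AT4G01310 and AT3G54210 of Arabidopsis thaliana encode proteins of the plastid ribosome, and each was read by 1 probe that named no other gene. They were taken by their locus identifiers, 4 of the 692 probes that named a single gene on an array of 3439 probes. Messenger RNA was measured in plants of the Columbia 0 ecotype, a standard laboratory wild type, in 6 untreated samples and in 6 samples taken 2 days after the leaves had been cut. No transgene or mutation was named in the labels for either group. The labels gave no harvest day for the untreated plants and no tissue for the RNA, so harvest time and wounding cannot be told apart. They did not say whether samples of a group came from separate plants, so a p-value reflects the spread among these arrays alone, part or all of which may be technical.

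Plastids carry their own ribosomes, which resemble those of bacteria and translate the few genes that the plastid genome kept, among them core subunits of the photosystems. Some proteins of these ribosomes are encoded in the plastid and the others in the nucleus, from where they are made in the cytosol and imported. The ribosome contains each of its proteins in a fixed proportion, which raises the question whether their transcripts vary together. AT1G64510 encodes S6, a protein of the small subunit, where in bacteria it binds together with S18. The other genes encode proteins of the large subunit. AT1G29070 encodes L34, one of its smallest proteins in bacteria. AT4G01310 encodes L5, which in bacteria binds the 5S ribosomal RNA, and AT3G54210 encodes L17, which in bacteria lies near the exit of the peptide tunnel.

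The arrays were not all alike. Wounded replicate 4 correlated with the other arrays at r between 0.437 and 0.514 over probes, against 0.871 to 0.984 among those 11, so each result is given with and without it. A set of 5 pairs of arrays (2 with 3 and 5 with 6 among the wounded ones, and 1 with 2, 3 with 4 and 5 with 6 among the untreated ones) lay closer to each other than to the rest of their group, with r between 0.952 and 0.984. They may not be independent samples, and p-values that count them singly can be too small. The deposited intensities had means between 0.983 and 1.09 per array. Values are given below as log2 intensities after quantile normalization, which gives all arrays the same distribution. Levels of different probes are not comparable, and the number of arrays limits the precision.

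The transcript of S6, AT1G64510, lay between -2.50 and -1.81 with a median of -2.20 in the 6 untreated samples on the log2 scale. In the wounded samples it lay between -4.48 and -1.58 with a median of -1.88. The lowest value was that of wounded replicate 4, and the other 5 wounded arrays lay between -2.05 and -1.58, with replicates 2 and 5 inside the untreated range and replicates 1, 3 and 6 above it. The difference was -0.049 ± 0.43 (SE, n = 6 and 6) on the log2 scale, with a limma adjusted p of 0.965. Without wounded replicate 4 it was 0.40 ± 0.14 (n = 6 and 5), 1.32-fold, with an adjusted p of 0.146 in limma and an unadjusted p of 0.0160, so its direction turned with that array. Without untreated replicate 2 it was 0.029, also above 0. As deposited, the intensity was 0.262, 0.236, 0.274 and 0.357 in wounded replicates 1, 3, 5 and 6, inside the untreated range of 0.191 to 0.373. In wounded replicate 2 it was 0.174 and in wounded replicate 4 it was 0.0535, below that range. The place of replicates 1, 3 and 6 above the untreated arrays therefore depended on the scaling.

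The transcript of L34, AT1G29070, was even across the untreated samples, at intensities between 0.812 and 1.10 with a median of 1.01. In the wounded samples its intensity was 0.391 in replicate 1, 0.556 in replicate 2 and 0.409 in replicate 3, listed at 0 in replicate 4, 0.928 in replicate 5 and 1.05 in replicate 6. Wounded replicates 1 to 3 lay below every untreated array, while replicates 5 and 6 lay within the untreated range, so the groups overlapped. The log2 level had a mean of -0.20 ± 0.13 (SD, n = 6) in untreated samples and of -0.57 ± 0.48 (SD, n = 5) in wounded samples. The wounded level minus the untreated one was -0.37 ± 0.22 (SE, limma adjusted p = 0.504), which leaves out wounded replicate 4, because a value of 0 has no logarithm. In the fit over 11 arrays the difference was the same, with a standard error of 0.19 and a limma adjusted p of 0.297.

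The transcript of L5, AT4G01310, had log2 levels between -1.35 and -0.93 with a median of -1.21 in untreated samples. Its wounded levels were -0.55 in replicate 1, -0.58 in replicate 2, -0.30 in replicate 3, -0.71 in replicate 4, -1.26 in replicate 5 and -1.48 in replicate 6. Wounded replicates 1 to 4 lay above every untreated array, replicate 5 lay within the untreated range and replicate 6 below it. The difference was 0.35 ± 0.21 (SE, n = 6 and 6, limma adjusted p = 0.508), and 0.33 ± 0.21 without wounded replicate 4 (adjusted p = 0.392 in limma). As deposited, the intensity was 0.657, 0.514 and 0.624 in wounded replicates 1 to 3, against 0.399 to 0.568 in untreated samples, and 0.487 in wounded replicate 4, so that replicates 2 and 4 lay inside the untreated range. The log2 medians of those 3 arrays before scaling were between -1.59 and -1.27, below the -1.10 to -0.77 of the untreated arrays.

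The transcript of L17, AT3G54210, lay between -0.84 and -0.28 with a median of -0.58 in untreated samples. In wounded samples it lay between -0.69 and 1.22 with a median of -0.39. Wounded replicate 4 was the highest of all 12 arrays at 1.22, and the other wounded arrays, from -0.69 to -0.34, lay inside the untreated range. The difference was 0.36 ± 0.30 (SE, n = 6 and 6, limma adjusted p = 0.592) and 0.074 ± 0.13 without that array (limma adjusted p = 0.794).

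**Figure D1:**
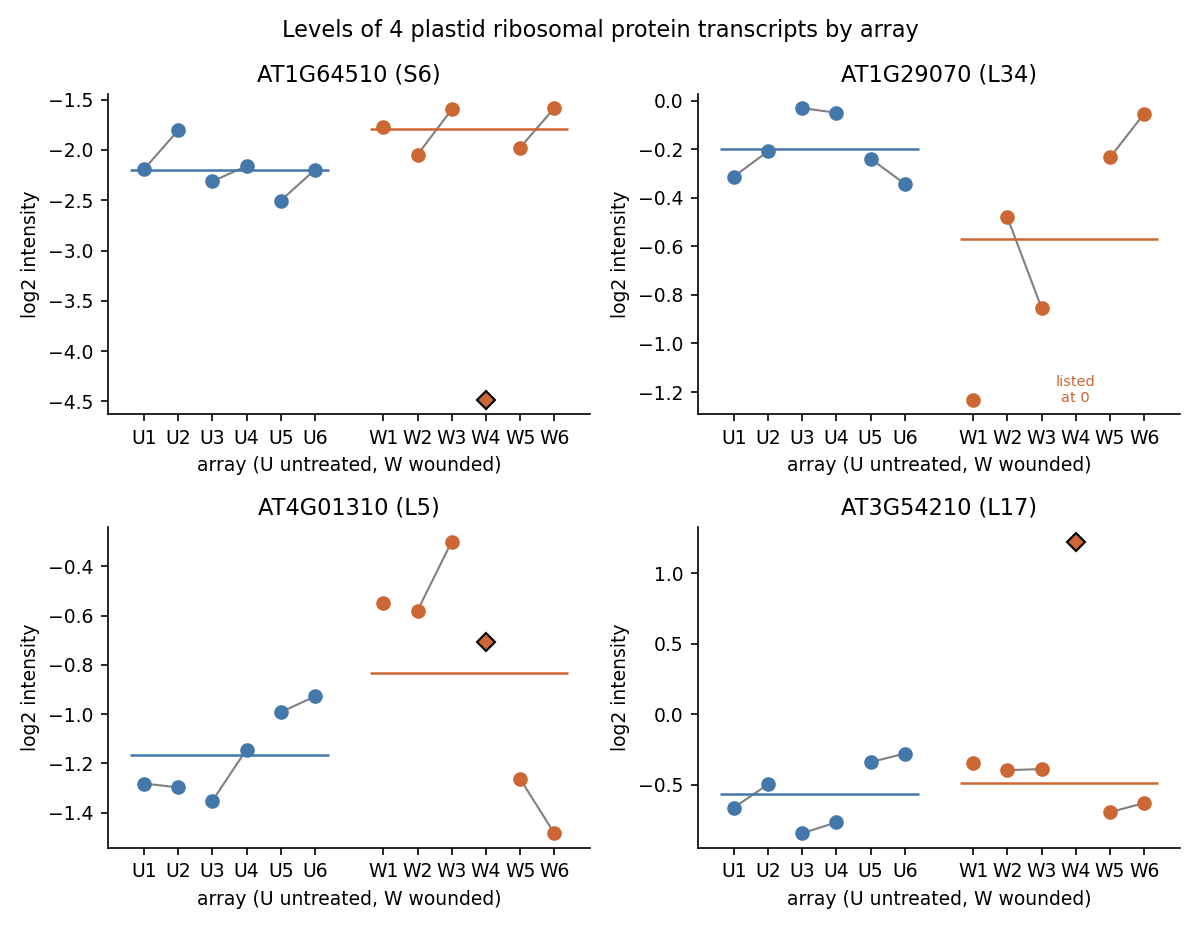
Log2 intensity after quantile normalization (vertical axis) of each of the 4 transcripts on each array (horizontal axis), in blue for untreated and orange for wounded samples. Grey lines join the 5 pairs of alike arrays, horizontal lines are group means without wounded replicate 4, and that array is the diamond, at -4.48 for S6 and 1.22 for L17 and listed at 0 for L34.

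None of the 4 genes passed the threshold of 0.05 on the adjusted p, and the groups overlapped for each of the 4, with or without wounded replicate 4. Over the 12 arrays limma called 0% of 3233 probes, 376 of them (11.6%) having an unadjusted p under 0.05, and the groups did not overlap for 3.56% of 3034 probes measured on all arrays. Over the 11 arrays it called 2.22% of 3203 probes, 0.968% as higher and 1.25% as lower in wounded samples, and 20.8% had an unadjusted p under 0.05, among them S6. There the groups did not overlap for 5.90% of 3087. On the same 11 arrays limma called 0 probes when each alike pair was a random block, with 243 of 3203 having an unadjusted p under 0.05, and 0 when each pair was averaged, with 217 of 3182. The 4 differences over the 12 arrays ran from -0.37 to 0.36, with a median of 0.15, against a median of -0.025 over all probes. Without further scaling of the deposited values the median over all probes was -0.32, and the differences were -0.32 for S6, -0.66 for L34 (unadjusted p = 0.0376 in limma, adjusted p = 0.239), 0.015 for L5 and 0.023 for L17. In whole plants or leaves, fewer cells of a type and less RNA per cell cannot be told apart.

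Of 41 nuclear genes for plastid ribosomal proteins in a list made for this comparison, 6 had a single-gene probe. Besides the 4 genes above these were AT3G13120, which encodes S10 of the small subunit, and AT5G65220, which encodes L29 of the large subunit and was listed at 0 on all 12 arrays. For S10 the groups differed by -0.0021 ± 0.17 on the log2 scale (SE, limma adjusted p = 0.995), and by 0.044 ± 0.15 without wounded replicate 4 (limma adjusted p = 0.906). Counting both directions, 0 of the 5 tested genes passed in limma. None of 24 ribosomal protein genes of the plastid genome, 9 plastid translation factors and 10 genes of plastid ribosome assembly had a single-gene probe. Markers of leaf cell types and roots had none either, so the tissue could not be checked.

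**Figure D2:**
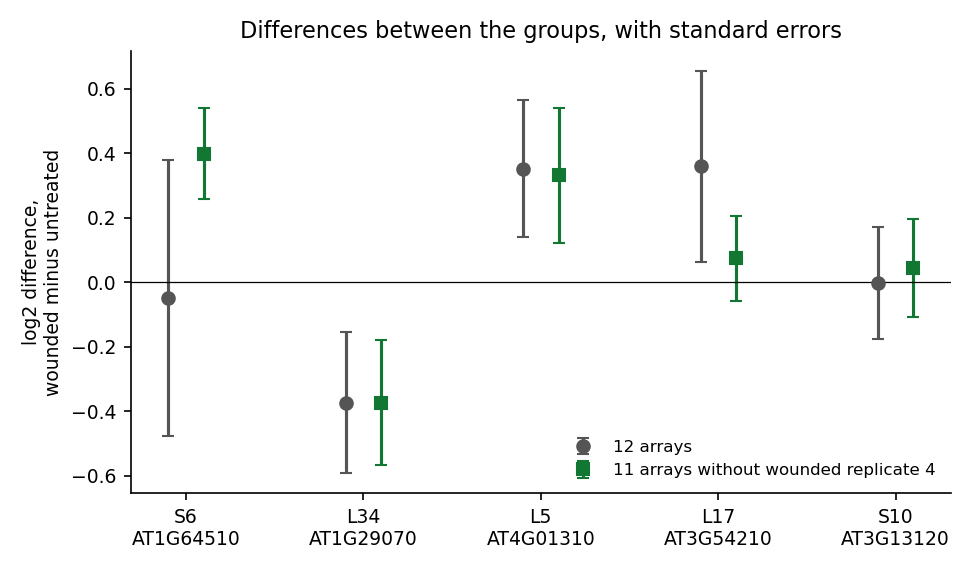
Difference in log2 intensity between wounded and untreated samples (vertical axis, bars are moderated standard errors) for the 5 plastid ribosomal protein transcripts with measured values. Circles are fits over 12 arrays and squares over 11; the value of S6 moved from -0.049 to 0.40 and that of L17 from 0.36 to 0.074, while L34 stayed at -0.37.

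The transcripts did not vary as 1 group. Of the 6 pairs, 3 had a positive and 3 a negative correlation across the 11 arrays without wounded replicate 4. Over the 12 arrays 1 was positive and 5 were negative, where the pairs of L34 rest on 11 arrays because L34 was listed at 0 on wounded replicate 4. With the values as deposited over the 11 arrays 4 were positive and 2 negative. L34 ran against L5, with Pearson r = -0.832 and Spearman rho = -0.845 across the 11 arrays on which both had a value (two-sided permutation test, adjusted p = 0.0104 for r and 0.0115 for rho over the 6 pairs, raw p = 0.00174 and 0.00192). Wounded replicates 1 to 3 had the 3 lowest levels of L34 and the 3 highest of L5, and wounded replicate 6 had the lowest level of L5 with the third highest level of L34. Among all 187578 pairs of single-gene probes, 1.07% had an r as low or lower on these arrays.

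The relation of L34 and L5 was negative under each scaling, but its test was not passed under each. After median centring r was -0.827 and rho -0.909 (permutation adjusted p = 0.0102 for r and 0.00114 for rho). With the values as deposited r was -0.710 (permutation adjusted p = 0.0931). With the alike arrays averaged, which left 6 points, r was -0.836 (exact permutation adjusted p = 0.208). Without wounded replicates 1 and 3, the arrays farthest from the median of L34, r was -0.778 over 9 arrays (exact permutation adjusted p = 0.0563). As deviations from the group means r was -0.784 and rho -0.836 (adjusted p = 0.159 for r and 0.0601 for rho by permutation within groups). Within the 6 untreated arrays alone r was -0.478 (exact permutation adjusted p = 0.647). No correlation is given for the 5 wounded arrays with a value of L34, fewer than the minimum of 6 arrays set for a correlation.

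L5 and L17 were positively correlated without wounded replicate 4, with r = 0.692 and rho = 0.645 over 11 arrays (permutation adjusted p = 0.0624 for r and 0.0727 for rho). With that array r was 0.453 and rho 0.643 over 12 arrays (permutation adjusted p = 0.180 for r and 0.0548 for rho). After median centring the 12 arrays gave r = 0.448 and rho = 0.776 (permutation adjusted p = 0.210 for r and 0.00864 for rho). As deviations from the group means over the 11 arrays, an alternative chosen after seeing the data, r was 0.689 (adjusted p = 0.0291 by permutation within groups). Among the untreated arrays alone r was 0.781, where untreated 5 and 6 were highest in both genes and untreated 3 was lowest in both (exact permutation adjusted p = 0.275). With the values as deposited r was 0.310 over the 11 arrays (permutation adjusted p = 0.433), and with the alike arrays averaged it was 0.755 over 6 points (exact permutation adjusted p = 0.217). Without wounded replicates 3 and 1, the farthest from the median of L5, r over 10 arrays was 0.633 (permutation adjusted p = 0.0563). Of all pairs of single-gene probes, 5.34% had an r of 0.692 or more over the 11 arrays, and 28.8% had one of 0.453 or more over the 12 arrays.

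L34 and L17 had an r of -0.622 and a rho of -0.736 over 11 arrays (permutation adjusted p = 0.0937 for r and 0.0392 for rho). That sign depended on the scaling, as r was -0.739 after median centring (permutation adjusted p = 0.0134) and 0.301 with the values as deposited (permutation adjusted p = 0.541). With the alike arrays averaged it was -0.693, with a rho of -0.829, over 6 points (exact permutation adjusted p = 0.217 for r and 0.308 for rho). Without wounded replicates 1 and 3 it was -0.704 over 9 arrays (exact permutation adjusted p = 0.0563). Within the untreated arrays alone r was -0.774 (exact permutation adjusted p = 0.275).

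S6 showed no relation to the others that held across the choices made. Its r with L34 was -0.415 and its rho -0.245 over 11 arrays (permutation adjusted p = 0.252 for r and 0.596 for rho), and r was 0.310 with the values as deposited. These values leave out wounded replicate 4, on which L34 was listed at 0 and S6 was also lowest. The r of S6 with L17 was -0.858 over all 12 arrays (permutation adjusted p = 0.105), where wounded replicate 4 was lowest in S6 and highest in L17, but 0.119 without that array (permutation adjusted p = 0.721). Its r with L5 went from -0.136 over 12 arrays (permutation adjusted p = 0.741) to 0.231 over 11 (permutation adjusted p = 0.587). Leaving out wounded replicates 4 and 6, the farthest from the median of S6, gave 0.529 with L5 and 0.231 with L17. With L34, leaving out wounded 6 and untreated 5 gave -0.702 over 9 arrays (exact permutation adjusted p = 0.0563). S6 was also the gene whose alike arrays differed most, by a median of 0.39 on the log2 scale over the 5 alike pairs, against 0.10 for L34, 0.21 for L5 and 0.065 for L17. For S6 this was more than the median difference of 0.20 between the further pairs of arrays of a group, which was 0.27 for L34, 0.33 for L5 and 0.29 for L17. The S6 probe was also dim, at percentiles 25.5 to 42.5 of intensity among all probes of an array over the 11 arrays. L34 lay at percentiles 51.0 to 77.0, L5 at 44.7 to 72.0 and L17 at 59.8 to 72.2. Whether the dim signal bears on the differences of S6 or on its correlations was not tested.

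**Figure D3:**
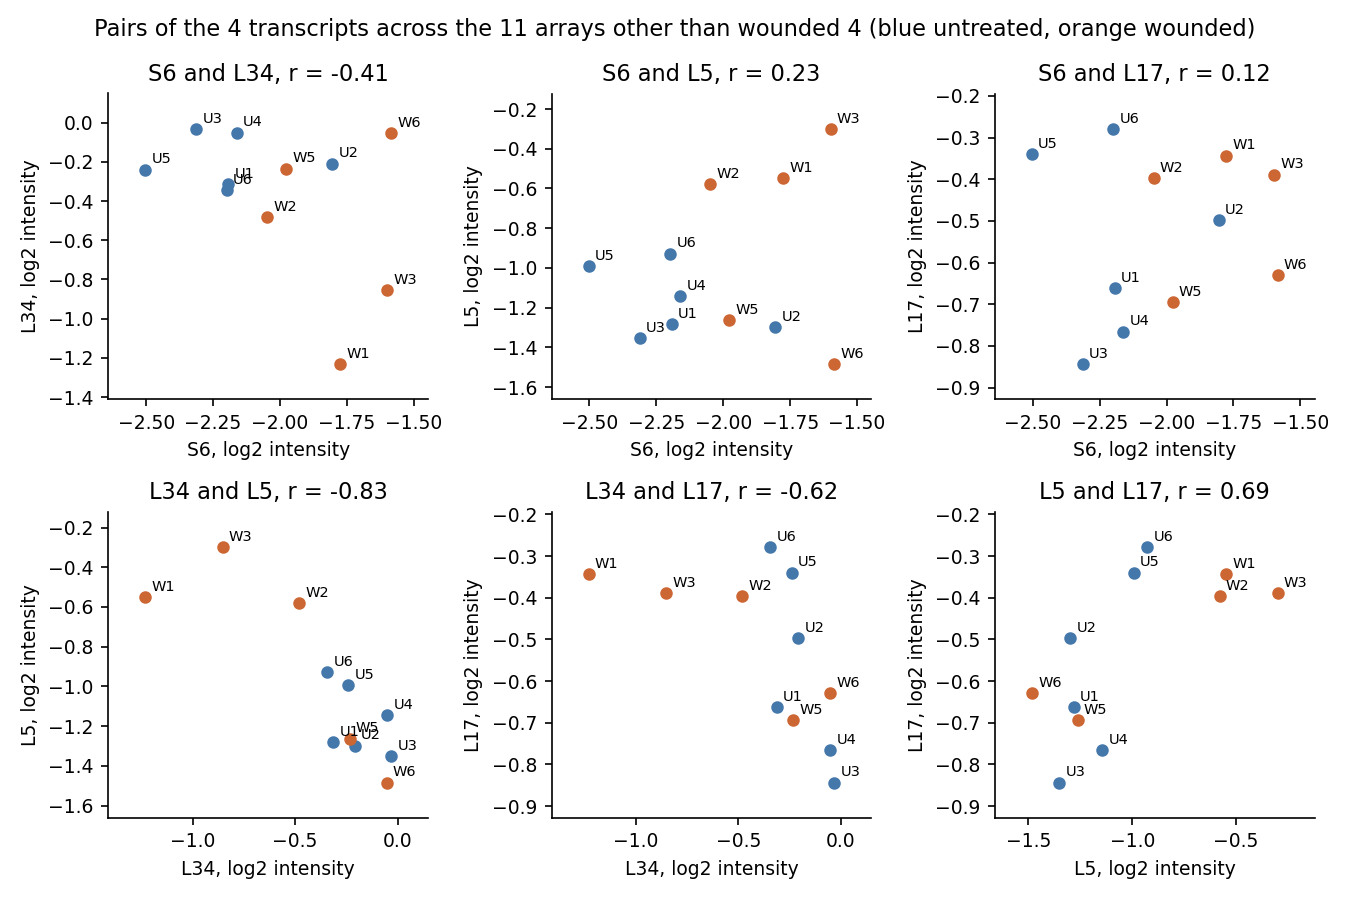
Log2 intensities of each pair of the 4 transcripts (one gene on each axis) on the 11 arrays other than wounded replicate 4, blue for untreated and orange for wounded samples. L34 and L5 lie along a falling line (r = -0.832) that wounded replicates 1 to 3 extend, L5 and L17 along a rising one (r = 0.692), and S6 shows no clear line with L5 or L17.

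The 6 correlations were then set beside those of all pairs of single-gene probes. Over the 11 arrays 1 of the 6 pairs had an r of at least 0.5, where 14.9% of all pairs of single-gene probes did, and 2 had an r of -0.5 or lower, where 14.1% did. Over the 12 arrays, with the pairs of L34 on 11 of them, 0 and 3 of the 6 pairs passed these lines, against 26.5% and 25.2% of all pairs. Of those 3, the 2 pairs of L34 rest on the 11 arrays, where the like share is 14.1%. The median r of all pairs was 0.0058 over 11 arrays, with a 5th percentile of -0.689 and a 95th percentile of 0.701.

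**Figure D4:**
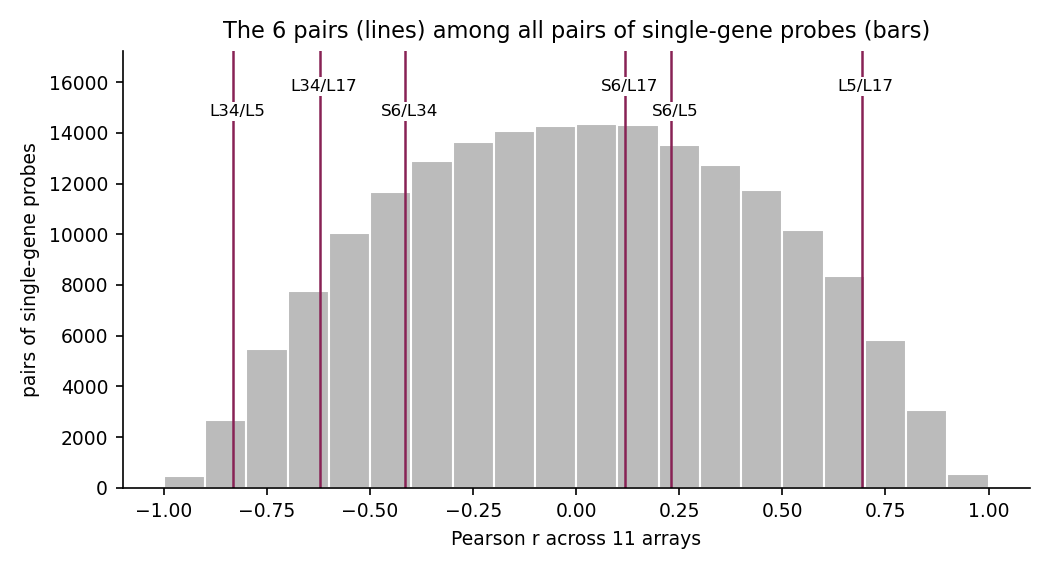
Number of pairs of single-gene probes (vertical axis) by their Pearson r across the 11 arrays (horizontal axis, bins of 0.1 wide). Vertical lines mark the 6 pairs of plastid ribosomal protein transcripts, which reach from -0.832 for L34 and L5 to 0.692 for L5 and L17.

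Whether 2 genes changed by different amounts was tested on their log2 difference within each array. S6 and L34 parted between the groups, by 0.77 ± 0.27 on the log2 scale (SE, n = 6 untreated and 5 wounded), with S6 higher relative to L34 in wounded samples (exact permutation test, two-sided, p = 0.00649, adjusted p = 0.0390 over the 6 pairs). L34 had no value on wounded replicate 4. Leaving out 1 of the 11 arrays used gave 0.60 to 0.90, and the test was passed in 2 of the 11 runs, those without untreated 2 or wounded 5, with adjusted p up to 0.114 in the others by the exact permutation test. With an untreated array left out, the smallest exact p times the 6 pairs is 0.0476, so these runs had little room to pass. With a wounded array left out it is 0.0286, which left room. Without wounded replicates 1, 2, 3 and 6 in turn the exact permutation adjusted p was 0.114, 0.0571, 0.0857 and 0.0571. With the values as deposited or centred on the median the difference was 0.71 (exact permutation adjusted p = 0.143), and with the alike arrays averaged it was 0.89, where 3 samples against 3 cannot give an exact p under 0.10.

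The other pairs did not pass. L34 against L5 changed by -0.70 ± 0.43 (SE, n = 6 and 5, exact permutation adjusted p = 0.320) and L34 against L17 by -0.45 ± 0.31 (exact permutation adjusted p = 0.320). L5 against L17 changed by -0.0070 ± 0.30 over the 12 arrays (exact permutation adjusted p = 0.987) and by 0.26 ± 0.18 without wounded replicate 4 (exact permutation adjusted p = 0.192). S6 against L5 changed by -0.40 ± 0.53 and S6 against L17 by -0.41 ± 0.75, and by 0.068 ± 0.29 and 0.32 ± 0.18 without wounded replicate 4. The standard errors ran from 0.18 to 0.75 on the log2 scale, so equal changes were not shown either.

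For each of the 4 genes some other single-gene probes had a higher r than the remaining 3 genes did. The highest of 612 values was set against the highest of 3, so this outcome was nearly fixed in advance. It does not show how alike the 4 genes are. Over the 11 arrays, among 612 other single-gene probes with a value on each, those most like L5 were AT2G47360 (r = 0.963), AT1G65370 (r = 0.908) and AT4G13550 (r = 0.891). For L17 these were HEMA3, a glutamyl-tRNA reductase gene of tetrapyrrole synthesis (r = 0.916), AT1G06510 (r = 0.876) and AT2G41950 (r = 0.835). L34 was most like AT5G38750 (r = 0.904), AT4G07670 (r = 0.895) and AT5G06410 (r = 0.867). S6 was most like AT5G44520 (r = 0.832), AT5G66530 (r = 0.752) and AT3G49740 (r = 0.701). As the highest of 612 values these are descriptions of the arrays, and with wounded replicate 4 the r of S6 with AT3G49740 became -0.796 and that of L5 with AT4G13550 0.241.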

How the data were processed

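The members and gene lists were chosen with earlier results of these data known. The authors deposited a table of linear intensity values, never below 0, for 3439 probes and 12 samples; the array type, background correction and scaling are unknown (not given in the sources used here). Groups and replicate numbers came from the sample titles. Probe names came from a platform annotation, updated by gene identifier through the RefSeq gene table of TAIR10.1, where 690 of 692 single-gene probes matched. Coordinates are left out, as the table names no genome build.

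Zeros were taken as missing; the other values were put on the log2 scale and quantile-normalized with limma 3.58.1 in R 4.3.3. Probes with at least 4 values in each group were tested with lmFit and eBayes, two-sided and with no block term, and p was adjusted by Benjamini-Hochberg over all probes tested. Pairs of the 4 genes were compared by Pearson r and Spearman rho with permutation tests (100000 resamples, exact below 10 arrays) and by an exact permutation test of the change in their difference, adjusted over the 6 pairs. The fit was tested on simulated data with 200 changed probes, and the permutation tests on small simulated sets of values with a known answer. The simulated arrays were independent of each other, so these checks did not cover the alike pairs. Named genes are the 4 members, listed genes with a single-gene probe and the 3 probes most correlated with each member over 11 arrays; HEMA3 is 1 of these. Alternatives covered the scaling, offsets, filters, an intensity trend, array weights, the replicate number as a block, alike arrays (each other's closest in a group, r over 0.95) as a random block or averaged, and leaving out each array. Same-numbered arrays of both groups did not deviate together (r between -0.342 and 0.0928), so the numbers were not taken as pairs.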

Additional observations from a re-analysis of the deposited data

Results flagged for a closer look

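Of 12 groups of values checked for a single array far from the others, where chance gives about 1 in 20, 3 had one. The 3 are not independent of each other, as each time the array was wounded replicate 4. For AT1G64510 (S6) it was the lowest wounded array, at -4.48 on the log2 scale, with a gap to the next of 0.840 of the group's range. For AT3G54210 (L17) it was the highest, at 1.22, with a gap of 0.817. Over all probes it correlated with the other arrays at a median r of 0.445, with a gap of 0.951. AT1G29070 (L34) was listed at 0 there, while AT4G01310 (L5) lay inside the range of the other wounded arrays.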

How the results depend on the processing

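Neither a difference between the groups in any of the 5 tested genes passed in limma under any alternative, nor a correlation of S6 with another gene. The difference of AT1G64510 (S6) turned positive after median centring (0.028), with zeros kept and an offset of 0.1 (0.058), with an offset of 50 (0.00082), with array weights (0.36), with alike arrays as a random block (0.40) or averaged (0.40) over 11 arrays. Leaving out single arrays gave -0.18 to 0.40 for S6, -0.50 to -0.21 for L34, 0.25 to 0.49 for L5 and 0.074 to 0.46 for L17. With the values as deposited S6, L34, L5 and L17 had -0.32, -0.66, 0.015 and 0.023, with zeros kept L34 had -0.81, and with alike arrays as a random block or averaged over 12 arrays S6 had -0.26 and -0.27 and L17 0.51 and 0.52. Array weights gave L34 -0.47, L5 0.49 and L17 0.19. AT3G13120 (S10) became 0.10, 0.00076, 0.043 and 0.042 under centring, the 0.1 offset, the random block and averaging over 11 arrays, and ranged from -0.090 to 0.059 with single arrays left out. The number of probes called in limma was 7 without further scaling (median difference of all probes -0.32 in place of -0.025), 1 with the offset of 0.1, 14 with that of 50, 179 with array weights, and 0 to 71 with single arrays left out, where 71 is without wounded replicate 4. It was 0 over 12 and over 11 arrays for alike pairs as a random block (82 and 243 probes with an unadjusted p under 0.05) or averaged (84 and 217).

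Among correlations, the r of L34 and L5 passed after median centring (-0.827). It no longer passed with the values as deposited (-0.710), averaged alike arrays (-0.836), deviations from group means (-0.784), untreated arrays alone (-0.478) or without the 2 extreme arrays (-0.778). Single arrays left out gave -0.899 to -0.795, passed in 11 of 11 runs that left out an array with a value of L34. The r of L34 and L17 passed after median centring (-0.739). As planned deviations from group means its r did not pass (-0.622, permutation adjusted p = 0.0583), while its rho did (-0.782, permutation adjusted p = 0.0210). That r passed when the other pairs had 11 arrays too (permutation adjusted p = 0.0291, chosen after seeing the data). It turned to 0.301 with the values as deposited, and ranged from -0.702 to -0.572 with single arrays left out, passing in 2. The r of L5 and L17 passed over 11 arrays after centring (0.789) and as deviations (0.689), both chosen after seeing the data, with a range of 0.405 to 0.692. After the planned median centring over 12 arrays its rho passed (0.776, permutation adjusted p = 0.00864), while its r did not (0.448, permutation adjusted p = 0.210). S6 with L34 turned to 0.310 as deposited (range -0.654 to -0.266). S6 with L5 turned to 0.0328 as deposited, 0.325 averaged over 11 arrays, 0.245 centred over 11, and 0.529 and 0.631 without 2 extreme arrays of 12 and 11 (range -0.357 to 0.231). S6 with L17 turned to 0.0978 averaged, 0.605 as deposited and 0.396 centred over 11 arrays, and 0.231 and 0.528 without 2 extreme arrays of 12 and 11 (range -0.901 to 0.119).

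For unequal changes, that of S6 and L34 was 0.71 as deposited or centred and 0.89 averaged. With the replicate number as a block, which paired same-numbered arrays although these did not deviate together, it was 0.75. None of these passed, and neither averaging nor the block, whose smallest exact p is 0.10 and 0.0625, could pass. With that block limma called 0 probes, 256 having an unadjusted p under 0.05. Averaged over 11 arrays, S6 against L5 turned to 0.023, S6 against L17 to 0.30 and L5 against L17 to 0.28. Single arrays left out gave 0.60 to 0.90 for S6 and L34, -0.67 to 0.068 for S6 and L5, -0.63 to 0.32 for S6 and L17, -0.996 to -0.47 for L34 and L5, -0.61 to -0.25 for L34 and L17, and -0.15 to 0.26 for L5 and L17. The causes of these changes were not tested.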

Other observations

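AT3G13120 (S10), the other measured gene of the small subunit, ran against L17 over the 11 arrays, with r = -0.630 and rho = -0.773, and against L5 with r = -0.322 and rho = -0.645. Its r was 0.452 with S6 and 0.0833 with L34, over the same 11 arrays. These pairs were added to the 6 compared above as a description, without a test.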
